A study of Mus musculus with 8 samples.

Results

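The genes described here encode 7 selenoprotein enzymes that reduce peroxides, thioredoxin or oxidized methionine: the glutathione peroxidases *Gpx1*, *Gpx3* and *Gpx4*, the thioredoxin reductases *Txnrd1*, *Txnrd2* and *Txnrd3*, and the methionine sulfoxide reductase *Msrb1*. They were chosen by symbol from the 23427 genes of the deposited expression table, and all 7 are listed there and passed the filter on low values, which 12208 genes passed. The libraries came from primary oligodendrocyte precursor cells (OPCs) of wild-type (WT) C57BL/6J mice, which were followed as they matured into oligodendrocytes (OLs). By the study's methods, OPCs were taken from 3 postnatal day 7 pups, whose cortices were dissociated, captured on plates coated with an antibody against PDGFRα, grown with PDGF-AA, CNTF and sodium selenite, and differentiated by removing PDGF-AA and adding the thyroid hormone T3. The sample labels instead describe a serum-containing medium, so the medium of these libraries is uncertain. The groups are Day 0, Day 1, Day 2 and Day 3 of differentiation, with 2 replicates each and 8 libraries in all. The study describes the replicates as independent experiments, and no knockdown or knockout sample enters this comparison.

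Selenoproteins carry selenocysteine (Sec), an amino acid encoded by a UGA codon that is otherwise a stop. The Sec insertion element (SECIS) in the untranslated end of the mRNA recruits the SECIS-binding protein Sbp2 and the elongation factor Eefsec, which bring in the Sec tRNA. In the enzymes considered here Sec sits at or beside the catalytic site. Gpx4 reduces lipid hydroperoxides within membranes and is the main guard against ferroptosis, an iron-dependent cell death driven by lipid peroxidation. Oligodendrocytes make large amounts of lipid-rich membrane and hold much iron.

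The Sec codons are shown because they are what these genes share and because their place in the mRNA separates the thioredoxin reductases from the other members. Each line gives 27 bases of coding strand from the GRCm38 genome, with the Sec codon in capitals, at exon positions of the GENCODE M21 annotation; all 7 genes lie on the plus strand.
Gpx1, chr9:108339439-108339465: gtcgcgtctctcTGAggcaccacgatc
Gpx3, chr11:54907244-54907270: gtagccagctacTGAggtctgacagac
Gpx4, chr10:80054725-80054751: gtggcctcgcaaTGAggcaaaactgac
Txnrd1, chr10:82896025-82896051: cagtctggctgcTGAggttaagcccca
Txnrd2, chr16:18477760-18477786: gtgactggttgcTGAggctaagtcacc
Txnrd3, chr6:89674777-89674803: cagaaaggctgcTGAggctagccctgc
Msrb1, chr17:24740146-24740172: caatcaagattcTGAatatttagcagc

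In the 3 thioredoxin reductases the Sec codon was the penultimate one, followed by a single codon and the true stop, and it lay in the last exon. It was codon 498 of 499 in *Txnrd1*, codon 526 of 527 in *Txnrd2* and codon 614 of 615 in *Txnrd3*. The peroxidases carried it early in the reading frame, at codon 47 of 201 in *Gpx1*, codon 73 of 226 in *Gpx3* and codon 73 of 197 in *Gpx4*. It lay 105, 240 and 342 bases upstream of the last exon junction in these 3 mRNAs. In *Msrb1* it was codon 95 of 116 and lay 34 bases upstream of that junction. The base after the codon was G in 6 genes and A in *Msrb1*. An mRNA whose UGA is read as a stop well upstream of the last junction can be degraded by nonsense-mediated decay, which is background and was not measured here.

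The values are FPKM, in which the fragments of a gene are divided by its transcript length and by the mapped fragments of the library. Levels of different genes can be compared only roughly, because the gene model behind the lengths is not given in the sources used here. No depth is stated, and the spacing of low values put it at 960000 to 1530000 fragments per library. The labelled cell types were checked by markers. The summed FPKM of 5 OPC markers was 2005 to 2035 on Day 0 and 918 to 1063 on Day 3, and that of 6 OL markers went from 787 to 1074 up to 18963 to 26846. Within the OPC sum, *Pdgfra* fell from 490 and 396 to 29.2 and 6.53 FPKM, and *Cspg4* from 51.3 and 65.7 to 1.025 and 0.778. *Olig1* and *Olig2* fell less, and *Sox10* was at 380 and 375 on Day 0 and 505 and 367 on Day 3. Astrocyte markers were higher in replicate 2 for 8 of 8 genes, with a summed FPKM of 120 to 167 in replicate 1, while replicate 2 went from 355 on Day 0 up to 957 on Day 3. Summed neuron markers went from 31.4 to 64.4 FPKM on Day 0 up to 115 to 233 on Day 3, most of it *Tubb3*. The median change of the 3 neuron markers tested was -0.50 log2 units, so the sum does not speak for neuron markers as a group. The 3 markers of dividing cells went from 385 to 493 down to 10.2 to 11.7. The part of these cell types in the differences between days was not tested. Of 7 microglial markers 6 were at 0 in every library. The 5 endothelial markers summed to 0.574 to 3.31 FPKM, most of it *Kdr*, with *Cldn5* and *Tek* at 0. In such a bulk sample fewer cells of a type and less RNA per cell cannot be told apart.

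*Gpx1*, *Txnrd1* and *Gpx4* were the abundant members throughout, and their order changed with differentiation. On Day 0 the order by mean FPKM was *Gpx1*, *Txnrd1*, *Gpx4*, *Msrb1*, *Gpx3*, *Txnrd2* and *Txnrd3*, and of these neighbours *Msrb1* and *Gpx3* had overlapping replicates. On Day 1 *Gpx4* and *Gpx1* overlapped at the top. On Day 2 and Day 3 *Gpx4* stood first, above *Gpx1*, *Txnrd1*, *Msrb1*, *Txnrd2*, *Gpx3* and *Txnrd3*, and no neighbours overlapped. The mean of *Gpx4* was 1.09 times that of *Gpx1* on Day 1, 1.73 times on Day 2 and 2.51 times on Day 3.

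**Figure D1:**
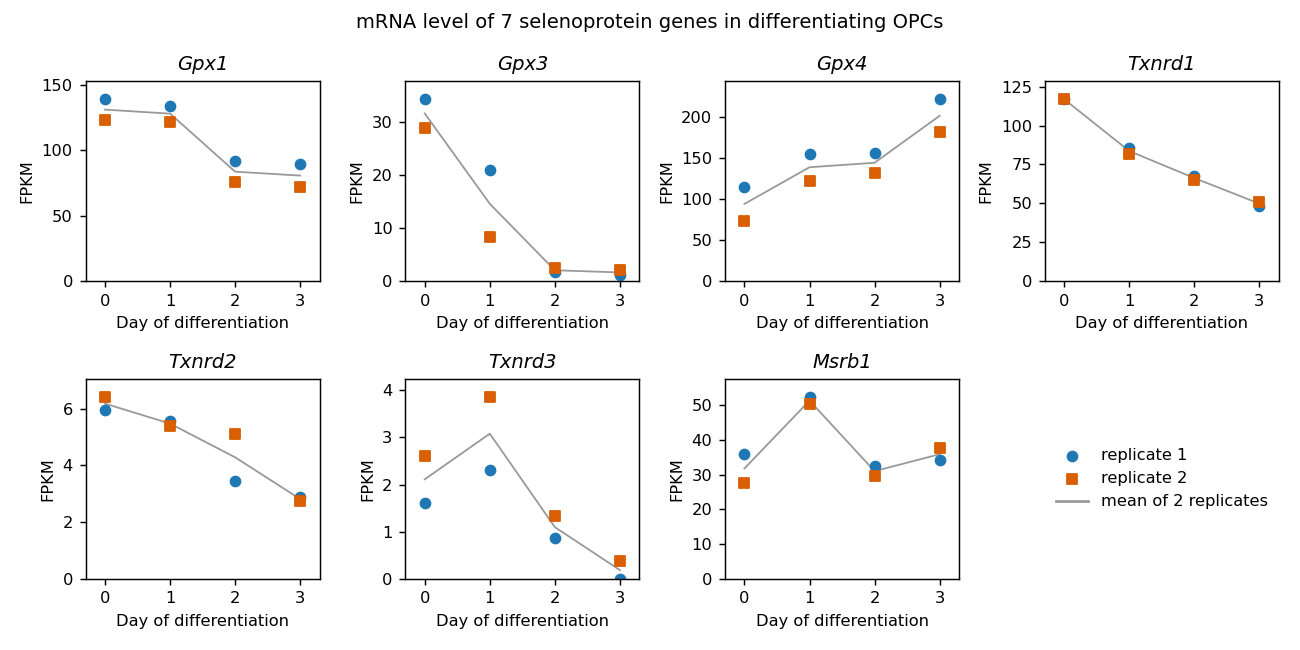
FPKM of each gene (y axis, from 0, scaled per gene) against the day of differentiation (x axis), with circles for replicate 1, squares for replicate 2 and a grey line through the mean of both. *Gpx4* goes from 73.1 and 115 FPKM at the start to 182 and 222 at the end, *Gpx3* reaches 1.21 and 2.06 on Day 3, and *Msrb1* is highest on Day 1.

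*Gpx4*, the membrane lipid peroxidase, rose from Day 0 to Day 3. Its FPKM in replicates 1 and 2 was 115 and 73.1 in the Day 0 libraries, 155 and 123 in those of Day 1, 157 and 132 in those of Day 2 and 222 and 182 in those of Day 3. Both Day 3 libraries lay above every earlier library, and both Day 0 libraries below every later one. The change was 1.12 ± 0.23 (SE) on the log2(FPKM + 1) scale, a ratio of means of 2.14 (limma, adjusted p = 0.00634), and it was 0.94 in replicate 1 and 1.30 in replicate 2. The slope was 0.34 log2 units per day (two-sided exact permutation test, p = 0.00476). Of the single steps, Day 1 against Day 0 was 0.58 ± 0.23 (adjusted p = 0.150, or 0.0271 with the replicate number as a block), Day 2 against Day 1 was 0.06, and Day 3 against Day 2 was 0.48 with an adjusted p of 0.393. Of the 31-base words of its annotated transcripts, 38.9% also occur in the copies *Gpx4-ps2* and AC122253.3, which the table does not list, and how such fragments were counted is not given in the sources used here, so the level of *Gpx4* is uncertain to that extent.

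*Gpx1*, the cytosolic peroxidase that removes hydrogen peroxide, fell over the same days. It measured 139 and 123 FPKM in the Day 0 libraries, 134 and 122 in those of Day 1, 91.7 and 75.3 in those of Day 2 and 89.3 and 71.8 in those of Day 3. The libraries of Day 0 and Day 1 overlapped, those of Day 2 and Day 3 overlapped, and all of the earlier pair of days lay above all of the later pair. The change by Day 3 was -0.70 ± 0.16, a ratio of means of 0.615 (limma, adjusted p = 0.0101). Nearly all of it lay between Day 1 and Day 2, at -0.61 ± 0.16 (adjusted p = 0.0765, 0.0282 with the replicate block, or 0.160 after median ratio scaling, where the step was -0.42). After median ratio scaling, which equalizes the typical gene between libraries, the Day 3 change was -0.39 with an adjusted p of 0.0695, and the call was also lost without replicate 1 of Day 0 (adjusted p = 0.0757) or replicate 2 of Day 3 (adjusted p = 0.0596).

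*Gpx3*, the secreted peroxidase known from plasma, fell. Its FPKM was 34.4 and 29.0 in the Day 0 libraries, 21.0 and 8.25 in those of Day 1, 1.62 and 2.48 in those of Day 2 and 1.21 and 2.06 in those of Day 3. From Day 0 to Day 2 each day lay below the day before, and Day 2 and Day 3 overlapped. The Day 3 change was -3.65 ± 0.41 (limma, adjusted p = 0.000377), and the step from Day 1 to Day 2 was -2.24 ± 0.41 (adjusted p = 0.0294). The call of that step was lost when any library of Day 0 or Day 2, or replicate 1 of Day 1, was left out (adjusted p = 0.0575 to 0.137). From the steps between values, 134 fragments on Day 0 and 5 on Day 3 lay behind these levels, a ratio of 0.0503 after correction for depth (exact 95% interval 0.0161 to 0.120, counting error only).

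The composition of this peroxidase mRNA shifted towards *Gpx4*. *Gpx4* made up 36.2% ± 5.3 (SD, n = 2) of the summed FPKM of the 3 peroxidases at Day 0, then 49.3% ± 1.1, 62.8% ± 0.20 and 71.1% ± 0.032 on the days that followed. *Gpx1* went from 51.4% ± 4.6 to 28.3% ± 0.33 and *Gpx3* from 12.4% ± 0.70 to 0.60% ± 0.30. The sum over the 4 days was 257 ± 45, 281 ± 40.7, 230.1 ± 28.4 and 284 ± 40.4 FPKM in turn. The gap between *Gpx1* and *Gpx4* closed and reversed at -0.61 log2 units per day, with p = 0.000794, the smallest that the exact permutation test over the 8 libraries can give. *Gpx3* against *Gpx4* gave -1.66 per day (exact permutation p = 0.00159), and *Gpx1* against *Gpx3* gave 1.05 per day (exact permutation p = 0.00238). A total of 13 slopes were tested, and these p-values are unadjusted.

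**Figure D2:**
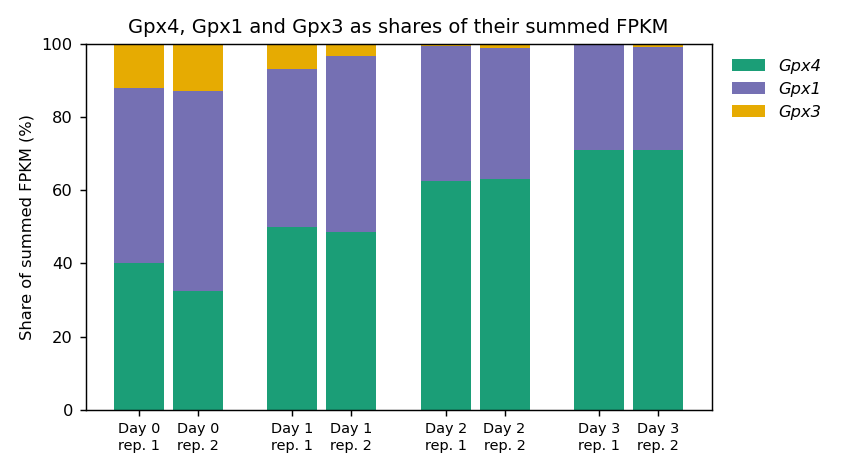
Share of the summed FPKM of *Gpx4*, *Gpx1* and *Gpx3* (y axis, percent) in each of the 8 libraries (x axis), as stacked bars. The mean *Gpx4* share is 36.2% over the Day 0 libraries and 71.1% over those of Day 3, and the *Gpx3* share is 0.387% to 1.18% in the libraries of the last 2 days.

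Among the thioredoxin reductases, which pass electrons from NADPH to thioredoxin, the cytosolic *Txnrd1* fell. It measured 117 FPKM in both Day 0 libraries, 85.8 and 81.4 in those of Day 1, 67.6 and 64.9 in those of Day 2 and 48.6 and 51.0 in those of Day 3. No replicates of different days overlapped, and each day lay below the one before. The Day 3 change was -1.22 ± 0.12, a ratio of means of 0.426 (limma, adjusted p = 0.000202), and it was -0.90 after median ratio scaling (adjusted p = 0.000864). The first step, -0.48 ± 0.12, passed the threshold (adjusted p = 0.0326), though not after median ratio scaling (adjusted p = 0.0698) or when any library of Day 0, Day 1 or Day 2 was left out. The later steps, -0.33 and -0.41, did not pass (adjusted p = 0.153 and 0.165). After median ratio scaling they were -0.13 and -0.37, so the evenness of the fall depends on the scaling. *Txnrd1* overlaps *Eid3* on the same strand, so its level may include fragments of that gene. The slope of -0.40 per day had the smallest p that the exact permutation test allows, 0.000794.

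*Txnrd2*, the mitochondrial reductase, was far less abundant, at 4.78% to 7.18% of the summed FPKM of the 3 reductases in single libraries. Its FPKM was 5.95 and 6.42 in the Day 0 libraries, 5.56 and 5.39 in those of Day 1, 3.45 and 5.13 in those of Day 2 and 2.89 and 2.74 in those of Day 3. Day 3 lay below every other library. The change of -0.91 ± 0.27 passed the threshold (limma, adjusted p = 0.0303), but not after rescaling to the same sum (adjusted p = 0.0545), median ratio scaling (-0.66, adjusted p = 0.102), quantile normalization (-0.45, adjusted p = 0.242) or when any library of Day 0 or Day 3 was left out. By its annotated length, about 8 to 26 fragments per library lay behind these values.

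*Txnrd3*, the thioredoxin-glutathione reductase best known from testis, was close to the limit of detection. It was at 1.61 and 2.61 FPKM in the Day 0 libraries, 2.30 and 3.86 in those of Day 1, 0.87 and 1.32 in those of Day 2 and 0 and 0.368 in those of Day 3. These values correspond to 7 and 9, 8 and 14, 3 and 5, and 0 and 1 fragments. The Day 3 libraries were thus under the floor of 3 fragments, and the ratio of Day 3 to Day 0 was 0.0842 with an exact 95% interval of 0.0020 to 0.542 (counting error only). On the log2(FPKM + 1) scale the change was -1.39 ± 0.37 (limma, adjusted p = 0.0197), a size that depends on the added 1, and quantile normalization gave an adjusted p of 0.0768. Leaving out either Day 0 library or replicate 1 of Day 3 also ended the call, with adjusted p-values of 0.0520 to 0.137.

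As a mean per day, *Txnrd1* made up 90.7% to 94.3% of the summed FPKM of the 3 reductases. That sum was 125 ± 1.05, 92.2 ± 2.17, 71.6 ± 0.39 and 52.8 ± 1.89 FPKM over the 4 days in turn (SD, n = 2). The differences in slope were -0.09 per day between *Txnrd1* and *Txnrd2* (exact permutation p = 0.178), 0.11 between *Txnrd1* and *Txnrd3* (exact permutation p = 0.519) and 0.21 between *Txnrd2* and *Txnrd3* (exact permutation p = 0.153), which does not show that they moved alike.

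*Msrb1*, which reduces the R form of methionine sulfoxide in proteins, was highest on Day 1 and had no clear trend in the values as deposited. Its FPKM was 36.1 and 27.6 in the Day 0 libraries, 52.5 and 50.3 in those of Day 1, 32.4 and 29.7 in those of Day 2 and 34.1 and 37.7 in those of Day 3. Both Day 1 libraries lay above the other 6, which spanned 27.6 to 37.7. The rise from Day 0 to Day 1 was 0.69 ± 0.16, a ratio of means of 1.61 (limma, adjusted p = 0.0296). The step back to Day 2 was -0.71 ± 0.16 (adjusted p = 0.0552, 0.0408 with the replicate block, or 0.138 after median ratio scaling, where the step was -0.52). Day 3 differed from Day 0 by 0.18 ± 0.16 (adjusted p = 0.416, 95% interval -0.20 to 0.56), and the slope was -0.02 per day (exact permutation p = 0.872). After median ratio scaling the Day 3 change was 0.49 (adjusted p = 0.0516) and the slope turned positive, so a net rise is not settled. The rise to Day 1 was lost when replicate 2 of Day 0 was left out (0.50, adjusted p = 0.216), and also without either Day 1 library.

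**Figure D3:**
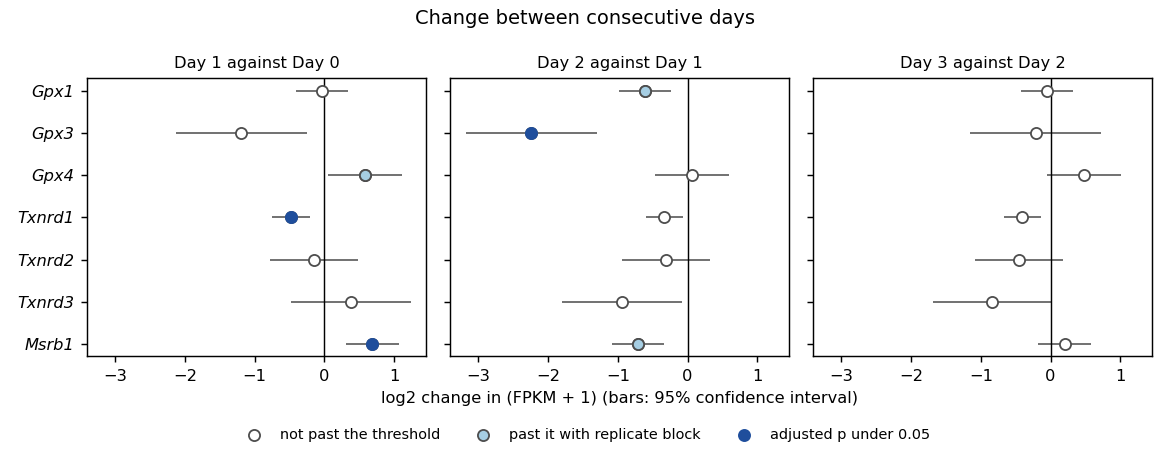
Change in log2(FPKM + 1) between consecutive days (x axis) for the 7 genes (y axis), in 3 panels, with bars for the 95% confidence interval. Dark points passed the threshold, light blue points passed it only with the replicate number in the model, and no gene is dark in the panel of Day 3 against Day 2.

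By Day 3, 6 of the 7 genes had changed against Day 0, with *Gpx4* higher and *Gpx1*, *Gpx3*, *Txnrd1*, *Txnrd2* and *Txnrd3* lower. Of all genes tested 38.2% passed the same threshold, 12.0% higher and 26.3% lower, and 71.4% had replicates of Day 0 and Day 3 that did not overlap, which held for 6 of the 7 members, *Msrb1* being the exception. The median change of all genes was -0.31 on this scale, and relative to it *Gpx1* was at -0.39, *Gpx4* at 1.43, *Txnrd1* at -0.90, *Txnrd2* at -0.60 and *Msrb1* at 0.49. The split of calls over all genes depended on scaling, with 1460 higher and 3207 lower as deposited and 2135 higher and 2047 lower after median ratio scaling. The members called were 4 after median ratio scaling (*Gpx3*, *Gpx4*, *Txnrd1* and *Txnrd3*) and 4 after quantile normalization (*Gpx1*, *Gpx3*, *Gpx4* and *Txnrd1*). Without replicate 1 of Day 0, 3 were called, and *Gpx1*, *Txnrd2* and *Txnrd3* were not.

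**Figure D4:**
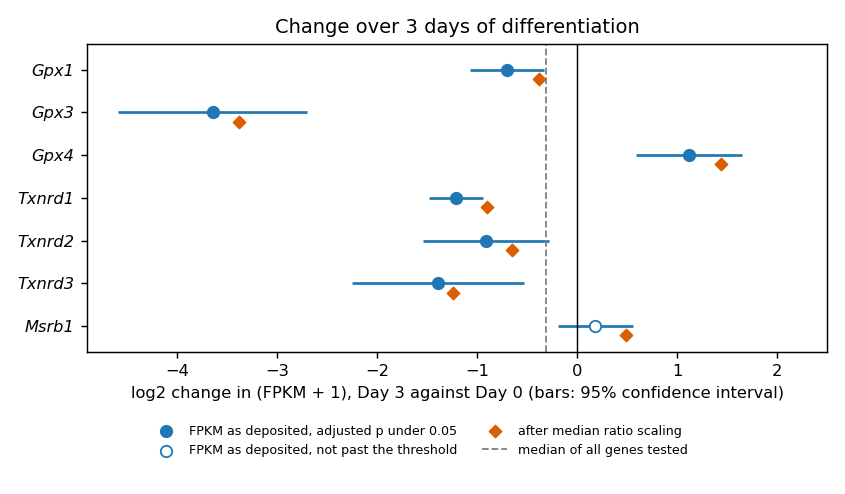
Change in log2(FPKM + 1) from Day 0 to Day 3 (x axis) for the 7 genes (y axis), as deposited (circles with 95% confidence intervals, filled where the adjusted p is under 0.05) and after median ratio scaling (diamonds). *Gpx4*, at 1.12, is the filled point above 0, 5 genes are filled below 0, and the dashed line marks the median of all genes at -0.31.

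Of the single steps, Day 1 against Day 0 had 2 members called (*Txnrd1* lower, *Msrb1* higher) where 12.6% of all genes were called, 5.04% higher and 7.56% lower. With the replicate block 3 members were called there, *Gpx4* being added. Day 2 against Day 1 had 1 (*Gpx3*, lower) against 3.89% of all genes (2.16% higher, 1.73% lower), and 3 with the replicate block, which added *Gpx1* and *Msrb1*. Day 3 against Day 2 had 0 by limma against 0.295% of all genes (0.246% higher, 0.0491% lower), with 1 member at an unadjusted p under 0.05, *Txnrd1* at -0.41. The F test over all 4 days passed for 6 members against 35.2% of all genes. *Txnrd2* was the one that missed it, with an adjusted p of 0.0920.

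Some members were higher in the same replicate on all 4 days, but no member was called between the 2 replicates. *Gpx4* and *Gpx1* were lower in replicate 2 on all 4 days, by 0.38 ± 0.10 and 0.23 ± 0.09 log2 units, and 12.2% of all genes tested were lower on all 4 days. Neither passed the threshold (limma, adjusted p = 0.167 and 0.363), and 0 of 7 members were called against 1.05% of all genes (0.68% higher, 0.369% lower), with 2 at an unadjusted p under 0.05. *Txnrd3* was higher in replicate 2 on every day, by 0.45 ± 0.22 (adjusted p = 0.487). The share of all genes higher in replicate 2 on every day was not counted. Beside these values, the 8 astrocyte markers were higher in replicate 2, 5 of them past the threshold, while the summed neuron markers were 64.4 to 233 FPKM in replicate 1 and 31.4 to 115 in replicate 2, most of it *Tubb3*. The part of other cell types in the replicate differences was not tested. *Gpx4* was higher on Day 3 than on Day 0 in both replicates.

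The other selenoprotein genes went in both directions. Of 17 listed, 14 were found in the table and 11 tested, and from Day 0 to Day 3, 2 rose and 2 fell, with a median of 0.14. These counts and those that follow stand beside 12.0% higher, 26.3% lower and a median of -0.31 over all genes tested. *Selenoh*, a nuclear selenoprotein, fell from 166 ± 1.67 to 13.1 ± 3.29 FPKM, a change of -3.59 (limma, adjusted p = 9.47e-05). *Selenom*, a selenoprotein of the endoplasmic reticulum, fell by 1.08 (adjusted p = 0.0136). *Selenoi*, an ethanolamine phosphotransferase of phospholipid synthesis, rose from 10.1 ± 2.26 to 21.1 ± 4.79 FPKM (0.99, adjusted p = 0.0137), and *Selenok*, a membrane protein of the endoplasmic reticulum, rose by 0.35 (adjusted p = 0.0458, or 0.052 with the replicate block). After median ratio scaling 4 rose and 2 fell, *Selenof* and *Selenos* being added. The most abundant, *Selenow*, was at 321 ± 5.42 FPKM on Day 0 and 296 ± 13 on Day 3 (-0.12, adjusted p = 0.506). Its change was 0.20 after median ratio scaling (adjusted p = 0.263), and quantile normalization called it higher.

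The list of cysteine relatives holds glutathione peroxidases and methionine sulfoxide reductases that use cysteine instead of Sec, not only direct counterparts of the members. Of its genes, 3 of 5 tested fell and none rose, with a median of -1.14, where 26.3% of all genes were lower. The genes that fell were *Gpx7* (-1.93, adjusted p = 0.00807), *Msra* (-1.14, adjusted p = 0.00642) and *Msrb3* (-1.53, adjusted p = 0.00571), and all 3 passed under every scaling tried. Their levels were low, with *Gpx7* at 4.23 ± 0.66 FPKM on Day 0 and 0.43 ± 0.61 on Day 3. *Msra* went from 9.36 ± 0.68 to 3.70 ± 0.20 FPKM and *Msrb3* from 6.15 ± 1.24 to 1.46 ± 0.32. The fragments behind these values were not estimated. *Gpx5* and *Gpx6* were at 0 in every library. Of 11 thioredoxin and peroxiredoxin genes, the substrates and partners of the reductases, 5 fell and none rose, with a median of -0.42 that is close to the -0.31 of all genes. *Txn1*, the cytosolic substrate of Txnrd1, fell from 117 ± 17 to 37.4 ± 6.06 FPKM (-1.63, adjusted p = 0.000224), and *Txn2*, the mitochondrial one, from 77.8 ± 9.34 to 45.5 ± 3.63 (-0.76, adjusted p = 0.00971). *Prdx4* fell by 2.20 (adjusted p = 0.00433). After median ratio scaling the count was 2, *Txn1* and *Prdx4*, and after quantile normalization *Prdx1* was called higher.

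For glutathione, the electron donor of Gpx4 and Gpx1, 2 of 7 supply and recycling genes tested fell and none rose, a share near the 26.3% of all genes that were lower. They were the glutaredoxin *Glrx* (-2.67, adjusted p = 0.00576) and *Gclc*, the catalytic subunit of the first step of glutathione synthesis (-0.59, adjusted p = 0.0208). *Gclc* did not pass after any of the 3 scalings. The glutathione reductase *Gsr* was at 15.9 ± 1.73 FPKM on Day 0 and 12.1 ± 4.98 on Day 3 (adjusted p = 0.265). Of 8 lipid peroxidation genes tested, 2 rose and 2 fell, and with the replicate block 3 rose, *Aifm2* being added (adjusted p = 0.0422, against 0.0515 without the block). The lipoxygenase *Alox5* rose from 1.07 ± 0.53 to 51.3 ± 0.43 FPKM (4.68, adjusted p = 0.000224), and *Nfe2l2*, which encodes the transcription factor Nrf2, rose by 1.28 (adjusted p = 0.0120). *Acsl4*, which activates polyunsaturated fatty acids for use in phospholipids, fell by 0.72 (adjusted p = 0.0283), and *Ncoa4*, the cargo receptor for ferritin, fell by 0.42 (adjusted p = 0.0497). Neither fall passed after any of the 3 scalings, under which *Aifm2* was called higher.

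In the list of Sec incorporation genes, 1 of 8 rose and 3 fell. The one that rose was *Secisbp2l*, whose protein Sbp2l is related to Sbp2 but, by the study's account, is thought not to insert Sec itself. The study also cites other work in which Sbp2l acts through synthesis of the selenoprotein Dio2. *Secisbp2l* went from 33.4 ± 2.07 to 336 ± 29.7 FPKM (3.29, adjusted p = 4.78e-05). *Secisbp2*, which encodes Sbp2, was at 11.9 ± 0.99 FPKM on Day 0 and 9.99 ± 1.45 on Day 3 (-0.23, adjusted p = 0.382, and 0.056 after median ratio scaling). *Sephs2*, listed here and among the other selenoproteins, was at 17.2 ± 0.58 FPKM on Day 0 and 13.8 ± 0.63 on Day 3 (-0.30, limma, adjusted p = 0.219). The Sec elongation factor *Eefsec* (-1.36, adjusted p = 0.0216), *Sephs1* (-1.20, adjusted p = 0.00136) and the Sec tRNA kinase *Pstk* (-1.35, adjusted p = 0.0495) fell, of which *Pstk* did not pass under any of the 3 scalings and *Eefsec* not under quantile normalization. Of the selenium uptake and release genes, *Scly*, which frees selenium from Sec, rose by 0.81 (adjusted p = 0.0324), and *Lrp8*, a receptor for selenoprotein P, fell by 0.93 (adjusted p = 0.00898), a call that quantile normalization ended.

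**Figure D5:**
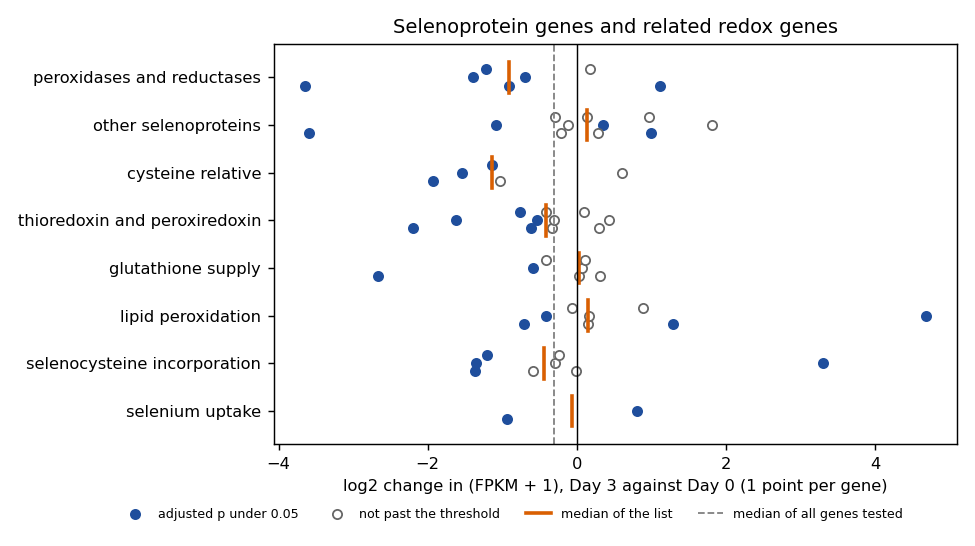
Change in log2(FPKM + 1) from Day 0 to Day 3 (x axis) of each tested gene, grouped by list (y axis), with filled points where the adjusted p is under 0.05, an orange bar at the median of each list and a dashed line at the median of all genes, -0.31. The list of 7 peroxidases and reductases has a median of -0.91, the cysteine relatives -1.14 and the other selenoproteins 0.14.

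The genes whose profile over the 8 libraries was most like that of each member were picked by Pearson's r of log2(FPKM + 1), as a description. The profile of *Gpx4* was closest to *Mtch1* (r = 0.96), 1110003E01Rik (r = 0.96) and *Tubb3* (r = 0.95). *Tubb3*, a tubulin used as a neuron marker, measured 60.2 and 20.8 FPKM on Day 0 and 231 and 113 on Day 3, with replicate 1 higher on every day as for *Gpx4*. *Txnrd1* was closest to *Srsf3*, *Rps12* and *Rpl8* (r = 0.99 for each), a splicing factor and 2 ribosomal protein genes. *Gpx3* was closest to *Nsa2* (r = 0.99), *Eif3b* and *Chchd2* (r = 0.98 for both), *Gpx1* to *Vcl*, *Eif2c1* and *Jak2* (r = 0.99 for each), and *Txnrd2* to *Mapkapk2*, 2410004B18Rik (r = 0.99 for both) and *Wtap* (r = 0.98). *Txnrd3* was closest to *Arnt2* (r = 0.99) and *Rac3* (r = 0.97), and *Msrb1* to *Slc25a17* (r = 0.99), *Gltscr1* (r = 0.95) and *P4hb* (r = 0.94). All of these correlations share the same 8 libraries and their depths.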

How the data were processed

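The authors prepared stranded mRNA libraries, sequenced them as paired ends on a MiSeq and processed the reads with OmicSoft ArrayStudio. They deposited FPKM per gene and library, with replicates not pooled, and the submitters' processing notes name mm10, the same build as GRCm38. The aligner, the gene model and whether counting used strand are not given in the sources used here. The study's methods name a count test, which was not used because the values are FPKM.

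The filter on low values kept a gene that reached an FPKM of 1 in 2 or more libraries. The 12208 genes kept were fitted on log2(FPKM + 1) with limma 3.58.1 in R 4.3.3 (lmFit, eBayes with a trend) to the 4 days as a factor, over all 8 libraries, and p-values were adjusted by Benjamini-Hochberg. A gene was called at an adjusted p under 0.05. Fold changes on this scale understate the change of low genes. An exact permutation of 2 against 2 libraries cannot go below 0.333, so slopes on day were tested over all 2520 arrangements of the libraries. The fit and the depth estimate were tested on simulated data. Other steps used Python 3.11.15, numpy 2.4.6, pandas 2.3.3 and matplotlib 3.10.9.

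Replicate numbers come from the labels. Replicate differences correlated between days over genes at r = 0.16 to 0.29 in all 6 pairs of days, so the numbers pair the samples by the rule set for this. The fit kept its planned form without a block, and the block was an alternative. Slopes permuted within replicate numbers (exact permutation, 576 arrangements) gave p = 0.00347, the smallest possible, for 5 members, 0.0243 for *Txnrd3* and 0.875 for *Msrb1*. Apart from the study's description of independent experiments, nothing says that libraries came from separate isolations, and p-values measure only the spread between them. Fragments were estimated from FPKM, transcript length and depth. For *Gpx3* and *Txnrd3* a single length made all values whole to within 0.1 of a fragment. The annotated length was used for the other genes.

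The 7 members and the gene lists were chosen with earlier results of these data known. Genes named are the members, called list genes with the largest changes, other list genes given as values, and the 3 genes most like each member (highest FPKM of at least 10). Alternatives were a pseudocount of 0.1, no filter, FPKM of at least 10 in 1 library, 3 other scalings, the replicate block, eBayes without a trend, a fit of the compared days alone, and leaving out each library in turn. Of the listed selenoprotein genes, 3 were not matched by symbol and are not analysed here. Some items are withheld and are not reported here. No table of protein sequences was used.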

Additional observations from a re-analysis of the deposited data

How the results depend on the processing

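With 2 libraries a day and 960000 to 1530000 fragments each, the low members rest on few fragments, and counting error alone reaches 100% for 1 fragment. Of Day 3 against Day 0, *Gpx3*, *Gpx4* and *Txnrd1* passed under every alternative run, at -4.23 to -3.38, 0.79 to 1.45 and -1.25 to -0.90 log2 units. The count of members called there was 3 to 6 when a library was left out, and over any day 3 (without replicate 2 of Day 0) to 5. For Day 1 against Day 0 it was 2, and 3 with the replicate block. There it was 1 with rescaling to the same sum or median ratio scaling. Without a trend or with only the days compared it was 0, and it was also lower with some libraries left out. For Day 2 against Day 1 it was 1, and 2 with FPKM of at least 10, 3 with the replicate block, 0 with no filter, without a trend or with only the days compared, and 0 to 1 with a library left out. The cause of these differences was not tested.

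The replicate block moved the genes called from 475 to 803 for Day 2 against Day 1 and from 36 to 163 for Day 3 against Day 2. Beyond the members named in the text it changed no other member's call. Over all genes, Day 2 against Day 1 gave 247 with no filter, 121 without a trend, 219 with only the days compared and 11 to 574 with a library left out. Day 3 against Day 2 gave 8 with a pseudocount of 0.1, 0 with no filter or without a trend, 6 with only the days compared and 0 to 249 with a library left out. The replicate difference went from 128 to 72, 59 and 77 with a pseudocount of 0.1, no filter and no trend, and 40 to 100 with a library left out. Left-out libraries gave 565 to 1625 for Day 1 against Day 0, 2701 to 4568 for Day 3 against Day 0 and 2245 to 4064 over any day.

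The changes of members that turned direction were not called. *Gpx1*, Day 1 against Day 0, became 0.054 with rescaling to the same sum and 0.051 with median ratio scaling, and ranged from -0.12 to 0.054 with a library left out. *Txnrd2* became 0.076 there with quantile normalization. With a library left out, Day 2 against Day 1 of *Gpx4* ranged from -0.11 to 0.23, Day 3 against Day 2 from -0.21 to 0.10 for *Gpx1* and from -0.45 to 0.021 for *Gpx3*, and Day 3 against Day 0 of *Msrb1* from -0.0068 to 0.37. Likewise the replicate difference ranged from -0.36 to 0.21 for *Gpx3*, -0.045 to 0.0040 for *Txnrd1* (0.037 with median ratio scaling) and -0.00016 to 0.17 for *Txnrd2*. The slope of *Msrb1* became 0.095 under median ratio scaling and ranged from -0.11 to 0.012 with a library left out. The slope of *Txnrd3* became -0.41 without replicate 1 of Day 3 (exact permutation p = 0.0603), and that of *Txnrd2* against *Txnrd3* became 0.76 with a pseudocount of 0.1 (exact permutation p = 0.0381).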
